A study of Homo sapiens with 16 samples.

Results

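Regions that were called in a single library were collected from 14 lists of H3K27ac ChIP-seq peaks in K562 cells. All peaks whose -log10 q reached 2, a q-value of 1% or lower, were merged wherever they overlapped or touched, and a merged region was kept when only 1 of the 14 lists held a peak in it. Of 170159 merged regions, 78668 (46.2%) were chosen by this rule, and each of them consisted of exactly 1 peak. They made up 7.38% of the 1065840 peaks that entered the merging. The number of lists and the q-value chose the regions, so their number, width, fold enrichment and q-value are described here without a test. Position, nearness to regions shared by all lists and weaker peaks in other lists were not criteria of the rule, and only these were tested. The shared regions come from the same merging and counting of lists. Weaker peaks are those that missed the same threshold, so neither nearness nor weaker peaks are independent of the rule. All p-values given below are two-sided and come from exact permutation tests. These ran through every pairing of libraries with titers or amounts for a trend, every pattern of sign flips for a difference within pairs or lists and every swap of the arms for weak peaks within and between arms. Adjusted values are Benjamini-Hochberg values over the 12 tests.

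The libraries were made with different amounts of chromatin and of an antibody against H3K27ac. Chromatin is given as DNA_chrom, the amount of DNA measured directly in the sheared chromatin of fixed K562 cells, and the titer is the amount of antibody per DNA_chrom relative to the ratio that the study took as optimal. In the fixed-antibody arm all reactions received the same amount of antibody, and the 7 libraries are named by DNA_chrom in µg and titer, which were 0.31-T32, 0.62-T16, K562-H3K27ac-1.25-T8, 2.5-T4, 5-T2, 10-T1a and 20-T0.5. These names are the ends of the titles, except for the third library of each arm, whose title is written whole. In the normalized arm the antibody followed the chromatin to titer 1, and the 7 libraries were 0.31-T1, 0.62-T1, K562-H3K27ac-1.25-T1, 2.5-T1, 5-T1, 10-T1b and 20-T1. All libraries share the cell line, which is a single established line from a chronic myelogenous leukemia, and no drug or genetic change separates them. Each condition has 1 library, except that 10-T1a and 10-T1b have the same DNA_chrom and titer. Their place in an arm follows the letter in their name, and exchanging them was tried as an alternative. The arms used different input libraries, so arm and input cannot be told apart, and within the fixed-antibody arm titer cannot be told apart from DNA_chrom. The lists of peaks at this threshold held 64083 to 82143 peaks per library. They give no read counts, so the depth behind a single peak is unknown here. The study reports read pairs, mapping rates and complexity for each library. These were not used here, and their part in the numbers below was not tested.

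Acetylation of histone H3 at lysine 27 marks active promoters and active enhancers, where it is written mainly by CREBBP and EP300 and removed by histone deacetylases. Promoters of expressed genes carry broad and strong H3K27ac around the transcription start site (TSS), while enhancers lie in introns or between genes and carry it over shorter stretches. K562 cells are of the erythroid and megakaryocytic lineage, express fetal and embryonic globin genes and depend on the factors GATA1 and TAL1. As a check of the label, the erythroid genes GATA1, TAL1 and HBG1 had a peak within 5 kb of the TSS in 14 of 14 lists.

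The promoters of LFNG, CHRNB1, ATP2A1 and PLEKHG5 are printed here. They show the sequence under such a call where no other list had a peak that reached the threshold. Each is the stretch of 250 bases before the TSS, 5′ to 3′ on the strand of the gene, from the RefSeq promoter table of GRCh38.p14, and capitals mark the bases inside the single-library peak. LFNG encodes a fringe glycosyltransferase that modifies Notch receptors, and its stretch is chr7:2512279-2512528 on the plus strand. CHRNB1, a subunit of the muscle acetylcholine receptor, is at chr17:7444811-7445060 on the plus strand. ATP2A1, the calcium pump of fast skeletal muscle, is at chr16:28878238-28878487 on the plus strand, and PLEKHG5, a guanine nucleotide exchange factor, is at chr1:6520093-6520342 on the minus strand.
LFNG promoter: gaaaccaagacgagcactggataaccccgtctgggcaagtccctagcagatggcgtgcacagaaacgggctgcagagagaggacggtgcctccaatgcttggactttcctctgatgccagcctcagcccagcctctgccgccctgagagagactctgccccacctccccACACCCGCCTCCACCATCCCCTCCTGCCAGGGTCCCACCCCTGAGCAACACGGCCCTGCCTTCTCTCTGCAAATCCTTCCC
CHRNB1 promoter: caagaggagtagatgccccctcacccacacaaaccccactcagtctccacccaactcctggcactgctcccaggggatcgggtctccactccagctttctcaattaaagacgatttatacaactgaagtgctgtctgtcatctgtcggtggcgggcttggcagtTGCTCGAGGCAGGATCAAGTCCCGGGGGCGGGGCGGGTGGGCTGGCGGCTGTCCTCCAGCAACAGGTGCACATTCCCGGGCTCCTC
ATP2A1 promoter: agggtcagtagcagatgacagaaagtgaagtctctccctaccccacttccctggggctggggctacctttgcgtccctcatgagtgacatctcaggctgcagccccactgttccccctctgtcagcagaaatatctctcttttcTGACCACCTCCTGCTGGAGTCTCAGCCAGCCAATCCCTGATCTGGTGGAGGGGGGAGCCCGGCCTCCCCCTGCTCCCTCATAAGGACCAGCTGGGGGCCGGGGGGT
PLEKHG5 promoter: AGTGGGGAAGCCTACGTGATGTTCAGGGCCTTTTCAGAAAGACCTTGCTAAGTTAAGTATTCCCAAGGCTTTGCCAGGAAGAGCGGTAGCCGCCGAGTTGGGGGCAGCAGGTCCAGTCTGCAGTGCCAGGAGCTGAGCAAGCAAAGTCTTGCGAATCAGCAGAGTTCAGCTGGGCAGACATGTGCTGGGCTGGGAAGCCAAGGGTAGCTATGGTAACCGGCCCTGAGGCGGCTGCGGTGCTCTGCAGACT
The peaks came from 0.31-T1 at LFNG, from 0.62-T1 at CHRNB1, from 10-T1b at ATP2A1 and from 2.5-T4 at PLEKHG5. They covered 81, 86, 106 and 250 of the 250 bases, with fold enrichments of 4.37, 4.29, 5.15 and 4.59. Weaker peaks of other lists, under the threshold, lay at the regions of ATP2A1 and PLEKHG5. The 4 stretches held 8, 10, 3 and 8 CpG dinucleotides at a GC content of 62.8%, 60.4%, 60.8% and 57.6%.

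Single-library regions were the narrowest and weakest class of merged region. Their width had a median of 221 bp with quartiles of 184 and 282 bp, and it ran from 155 to 1139 bp. Fold enrichment, the authors' ratio of ChIP signal over the local background, had a median of 3.84 with quartiles of 3.55 and 4.25, and it ran from 2.17 to 10.3. Regions with a peak in exactly 2 lists had a median width of 360 bp and a median fold enrichment of 4.28 for their strongest peak, and regions with a peak in all 14 lists, called common regions below, had 2960 bp and 14.04. Merging itself makes a region of several peaks wider, so these classes are not alike in how their width arises. Within its own list, ranked by fold enrichment, a single-library peak stood at a median percentile of 21.95, and 9.54% of the single-library peaks lay above the median of their list. The highest percentile that any of them reached was 91.05.

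**Figure D1:**
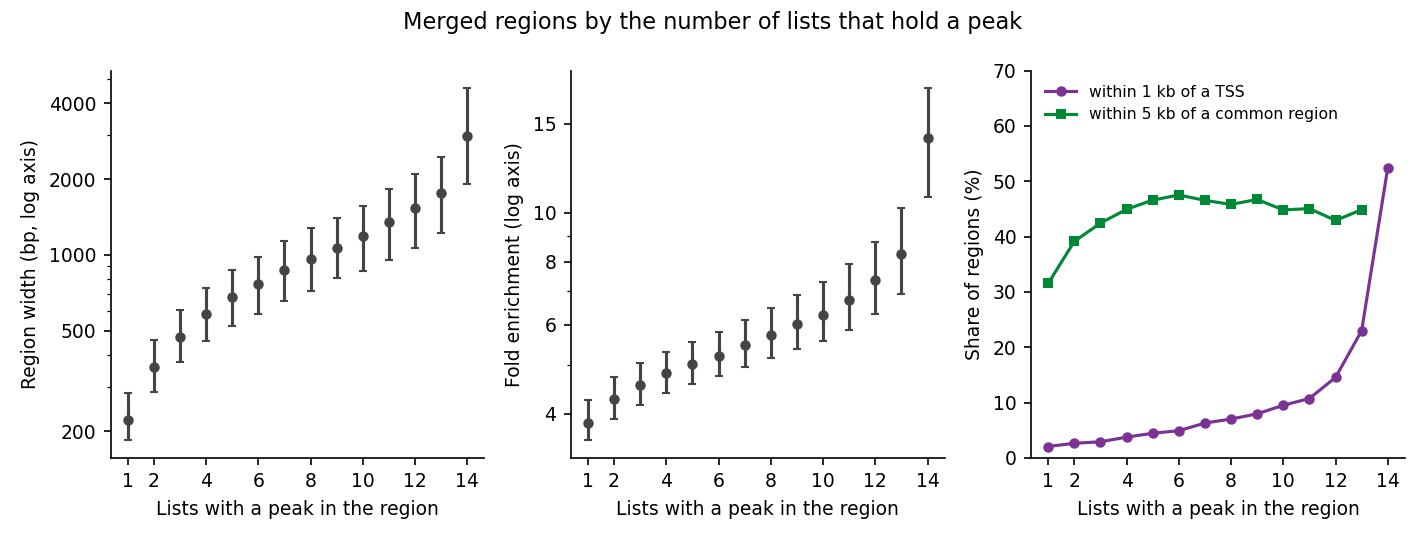
Merged regions by the number of lists that hold a peak in them, from 1 (single-library regions) to 14 (common regions). The left and middle panels give the median region width in bp and the median fold enrichment of the strongest peak with bars from the first to the third quartile on log axes, and the right panel gives the percentage of regions within 1 kb of a TSS and within 5 kb of a common region. Single-library regions lie lowest in all 3 panels, with a median width of 221 bp and 2.05% within 1 kb of a TSS.

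Many single-library regions lay close to the threshold. A -log10 q of at least 3 was reached by 44.9% of them and a -log10 q of at least 5 by 4.71%, with 15.8 as the highest. Just inside the threshold, 4982 single-library regions had a -log10 q from 2.0 to 2.1, with a median fold enrichment of 3.33 and a median width of 215 bp. Just outside it, 4029 deposited peaks with a -log10 q from 1.9 to 2.0 lay outside all merged regions, with a median fold enrichment of 3.21 and a median width of 216 bp. The peaks on both sides of the line had nearly the same width.

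Every library contributed single-library regions, and the normalized arm held both the smallest and the largest contribution. The fixed-antibody arm held, in the order of falling titer, 4756, 5402, 4657, 5503, 6322, 5884 and 4274. The normalized arm held, from 0.31 to 20 µg, 3069, 5590, 7332, 5723, 7621, 5989 and 6546. As a share of the peaks in the list they ranged from 5.81% in 20-T0.5 to 7.72% in 5-T2 in the fixed-antibody arm, and from 4.504% in 0.31-T1 to 9.28% in 5-T1 in the normalized arm. The values of the arms overlap, and within the normalized arm the order does not follow DNA_chrom, since 2.5-T1 lay below both K562-H3K27ac-1.25-T1 and 5-T1. The 2 libraries of the same condition were closer than any other matched pair, at 7.41% in 10-T1a and 7.49% in 10-T1b.

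**Figure D2:**
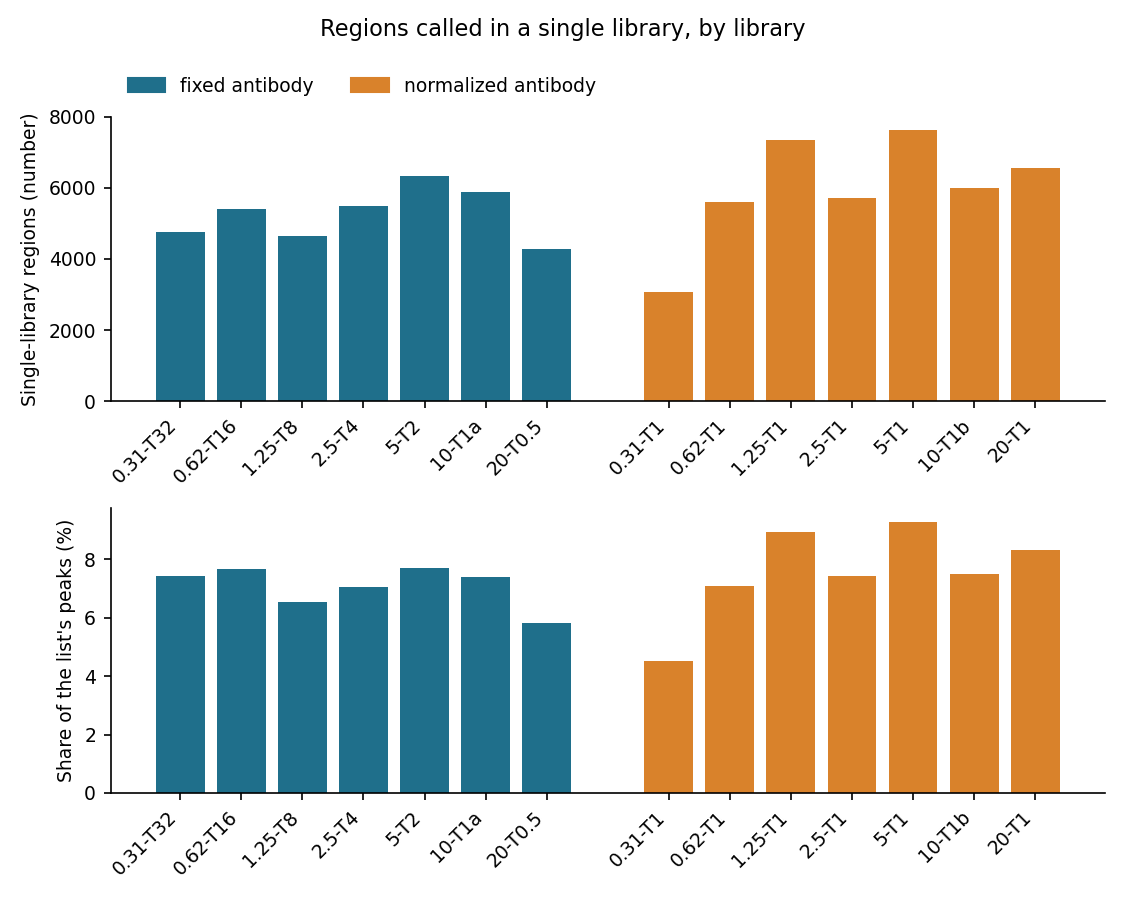
Single-library regions in each of the 14 libraries, as a number in the upper panel and as a percentage of the peaks in that list in the lower panel, with bars from 0 and 1 bar per library. 0.31-T1 has the fewest, 3069, and 5-T1 the most, 7621.

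The bases covered by single-library regions were a small part of each list. They came to 1.00 to 1.52 Mb in the fixed-antibody arm and 0.725 to 2.07 Mb in the normalized arm. As a share of the bases in the list this was 3.34% at titer 32 and lower at each lower titer, down to 1.58% at titer 0.5, and it was 1.33% to 2.75% in the normalized arm. The covered bases themselves did not fall in this order. Library 0.31-T32 had 1.095 Mb of them, 5-T2 the most of its arm with 1.516 Mb, and 20-T0.5 the fewest with 1.004 Mb. Such a share also depends on the total length of the list, and the part of that length was not tested. Median widths were 203 to 216 bp in the fixed-antibody arm and 214 to 242 bp in the normalized arm, and median fold enrichments were 3.81 to 3.93 and 3.72 to 3.91. Widths and fold enrichments of the arms overlapped, and the widest and weakest median belonged to the same library, 5-T1.

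The strongest single-library region of each library, taken by the -log10 q, stood mostly outside promoters. The highest of all was a 183 bp region at chr2:201440063-201440245 in 20-T1, inside TRAK2, which encodes an adaptor for mitochondrial transport, with a fold enrichment of 10.3 and a -log10 q of 15.8. It lay 11213 bases from the nearest TSS and 169 bases from the nearest other merged region, and no other deposited list had even a weaker peak there. In 10-T1b the strongest was inside ACTR3C on chromosome 7, with a -log10 q of 11.2, and in 10-T1a it was on chromosome 18, 30559 bases from a TSS, with 10.95. In 0.62-T16 it lay 2139 bases from the TSS of CTSH, which encodes the protease cathepsin H, with a fold enrichment of 7.90, at the percentile of 91.05 in its list. Over the 14 libraries the highest -log10 q ran from 8.06 in 0.31-T1 to 15.8 in 20-T1.

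Among these 14 regions, the nearest TSS was 566 to 104027 bases away. The closest was that of ARHGAP11A, a GTPase-activating protein, beside the strongest region of 2.5-T4. The farthest was in 5-T1, where the region lay inside BIRC6, an inhibitor of apoptosis, 104027 bases from the TSS of TTC27. Only the regions of 0.31-T1 and 0.62-T1 had a weaker peak in another list, in 20-T1 and in 0.31-T1 respectively. The 3 widest single-library regions were 1139 bp on chromosome 1 near ACOT11 in 0.31-T32, 1120 bp inside PLXNA1, a semaphorin receptor, in 10-T1a and 1097 bp inside CSNK2A1, the catalytic subunit of casein kinase 2, in 20-T1. Their fold enrichments were 4.86, 5.37 and 4.59, and each lay close to another merged region, at 169, 87 and 78 bases.

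Single-library regions seldom lay at promoters. Of the 78668, 1609 (2.05%) were within 1 kb of the TSS of a protein-coding gene and 133 overlapped one. Most, 73.5%, had their midpoint inside a protein-coding gene, and 11.4% lay more than 100 kb from the nearest TSS. Of the regions in exactly 2 lists 2.64% were within 1 kb of a TSS, and of the common regions 52.4%. The median distance to a TSS was 22061 bases for single-library regions, 19592 for regions in 2 lists and 313 for common regions.

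Within each list, single-library regions were at promoters less often than the list's regions with a peak in exactly 1 other list. The difference was negative in 14 of 14 libraries, from -1.36 percentage points in K562-H3K27ac-1.25-T8 to -0.27 in K562-H3K27ac-1.25-T1, with a mean of -0.618 (exact p = 0.0001221 by sign flips over 14 libraries, the smallest they can give, adjusted p = 0.0007324). A region shared by 2 lists counts in both of them, so the 14 differences are not fully independent. Regions in 2 lists were also wider, at a median of 360 against 221 bp, and the part of width in this difference was not tested.

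No trend of the promoter share over titer or DNA_chrom passed the test. From titer 32 to 0.5 the fixed-antibody arm had 2.52%, 2.98%, 2.28%, 1.71%, 1.66%, 2.07% and 1.97%. Its Pearson's r with log2 titer was 0.676 (exact p = 0.0952 over all pairings, adjusted p = 0.143, n = 7), Spearman's rho was 0.679 (exact p = 0.110), and without 0.31-T32 and 20-T0.5 r was 0.718 (exact p = 0.167). The normalized arm had 1.37%, 1.99%, 1.92%, 1.40%, 1.94%, 2.09% and 2.60% from 0.31 to 20 µg. Its r with log2 DNA_chrom was 0.715 (exact p = 0.0683 over all pairings, adjusted p = 0.117, n = 7) and rho was 0.75 (exact p = 0.0663). Without 0.31-T1 and 20-T1, r was 0.129 (exact p = 0.9). At matched DNA_chrom, the normalized library minus the fixed-antibody library came to -0.317 percentage points over 6 pairs, negative in 4 of them (exact p = 0.281 by sign flips over 6 pairs, adjusted p = 0.338). These values depend on the definition of a promoter or of a region. When a reciprocal overlap of at least 50% of both peaks was needed to call a peak shared, r in the fixed-antibody arm was 0.930 (exact p = 0.00159) and the matched difference was -3.58 percentage points (exact p = 0.0312). When a promoter was taken as 5 kb around the TSS, r in the normalized arm was 0.909 (exact p = 0.00893). Leaving out 2.5-T1 raised r in the normalized arm to 0.895 (exact p = 0.00556), and leaving out K562-H3K27ac-1.25-T1 raised it to 0.805 (exact p = 0.0486).

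The single-library region of highest fold enrichment over a TSS was taken in each library. In 5-T2 it lay over the start of RAPGEFL1, with a fold enrichment of 6.595, and in 20-T0.5 over the start of ZNF609, a zinc finger protein, with 5.59. CTSO, which encodes cathepsin O, was reached in 0.62-T16 with 5.29, and the remaining values in the other 11 libraries were 4.29 to 5.15. Genes of other tissues were among them. They were ACP3, the acid phosphatase of the prostate, in 20-T1 with 5.02 and APOA2, an apolipoprotein of the liver, in 2.5-T1 with 4.77. CD226, an immune receptor, was reached in K562-H3K27ac-1.25-T8 with 4.93. The other genes were TMPRSS4, CHAC1, PDCL2 and PLA2G4C beside the 4 printed above. A weaker peak was present in at least 1 other list at 6 of these 14 regions, and at PLA2G4C and ATP2A1 in 2 other lists. A single-library region over a start does not mean that the promoter had no other call. The RefSeq promoter windows of RAPGEFL1 and CHAC1 were also overlapped by regions with a peak in 8 and in 9 lists. The region at ZNF609 lay 488 bases from a common region.

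Part of the single-library regions flanked a common region. Most lay within 1 kb of some other merged region, but less often than any other class of merged region. Within 5 kb of a common region there were 24791 of them (31.5%), and within 1 kb 10.1%. The nearest merged region of any class was within 1 kb for 67.95%, at a median distance of 472 bases. For regions in exactly 2 lists these values were 81.7% and 290 bases, and for common regions 89.6% and 196 bases. Of the single-library regions near a common region, 8.72% had one within 5 kb on both sides. For 48.7% the nearest common region was itself within 1 kb of a TSS, while 52.4% of all common regions were.

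Within each list, single-library regions were near a common region less often than regions shared with 1 other list. The difference was negative in 14 of 14 libraries, from -10.6 percentage points in 0.31-T32 to -3.86 in 20-T0.5, with a mean of -7.55 (exact p = 0.0001221 by sign flips over 14 libraries, the smallest they can give, adjusted p = 0.0007324). As for promoters, the 14 differences are not fully independent, and the part of region width in them was not tested. Both classes and the common regions are also defined by the same count of lists. The p-value is therefore no independent support. Over all regions the share was 31.5% in 1 list, 39.1% in 2 lists and 42.4% in 3 lists.

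In the fixed-antibody arm the share near a common region rose as the titer fell. It was 25.8% at titer 32, 26.5% at 16, 26.7% at 8, 28.7% at 4, 30.5% at 2, 32.2% at 1 and 33.7% at 0.5, so each library lay above the one of next higher titer. Pearson's r with log2 titer was -0.980 (exact p = 0.0003968 over all pairings, the smallest they can give, adjusted p = 0.00159, n = 7) and rho was -1 (exact p = 0.0003968). Without 0.31-T32 and 20-T0.5, r was -0.978 (exact p = 0.0167). At a threshold of 3 for the -log10 q, r was -0.955 (exact p = 0.00238), and with gaps of up to 200 bp merged it was -0.919 (exact p = 0.00635). The trend was lost under 3 settings further from the one used. At a threshold of 5 for the -log10 q, r was 0.537 (exact p = 0.216), when gaps of up to 1 kb were merged it was 0.0571 (exact p = 0.906), and with common regions up to 20 kb away it was -0.581 (exact p = 0.176).

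In the normalized arm the share near a common region varied less and showed no trend that passed the test. It was 32.2%, 32.4%, 32.7%, 34.4%, 34.2%, 35.8% and 32.4% from 0.31 to 20 µg. Pearson's r with log2 DNA_chrom was 0.505 (exact p = 0.234 over all pairings, adjusted p = 0.312, n = 7), with a rho of 0.607 (exact p = 0.167). This value rests on 20-T1, without which r was 0.978 (exact p = 0.00278, n = 6), and without both 0.31-T1 and 20-T1 it was 0.954 (exact p = 0.0333). At matched DNA_chrom the normalized library was higher in 5 of 6 pairs, by 3.72 to 6.43 percentage points, and lower by 1.32 at 20 µg. The mean difference of 4.38 did not pass the test (exact p = 0.0625 by sign flips over 6 pairs, adjusted p = 0.117). It was 2.02 with a -log10 q of at least 5, 4.80 with all deposited peaks, 4.06 and 2.01 with gaps of up to 200 bp and 1 kb merged, 3.63 within 1 kb of a common region and 4.28 over 7 pairs, each with an unadjusted exact p of 0.0312. The 2 libraries of the same condition differed by 3.64 percentage points, nearly as much as the mean of the 6 pairs. A higher share in the normalized arm was not particular to single-library regions. For regions in exactly 2 lists the share was 38.1% to 41.8% there, with a median of 40.6%. In the fixed-antibody arm it was 36.4% to 38.6%, with a median of 37.4%. The arms were not tested for that class.

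**Figure D3:**
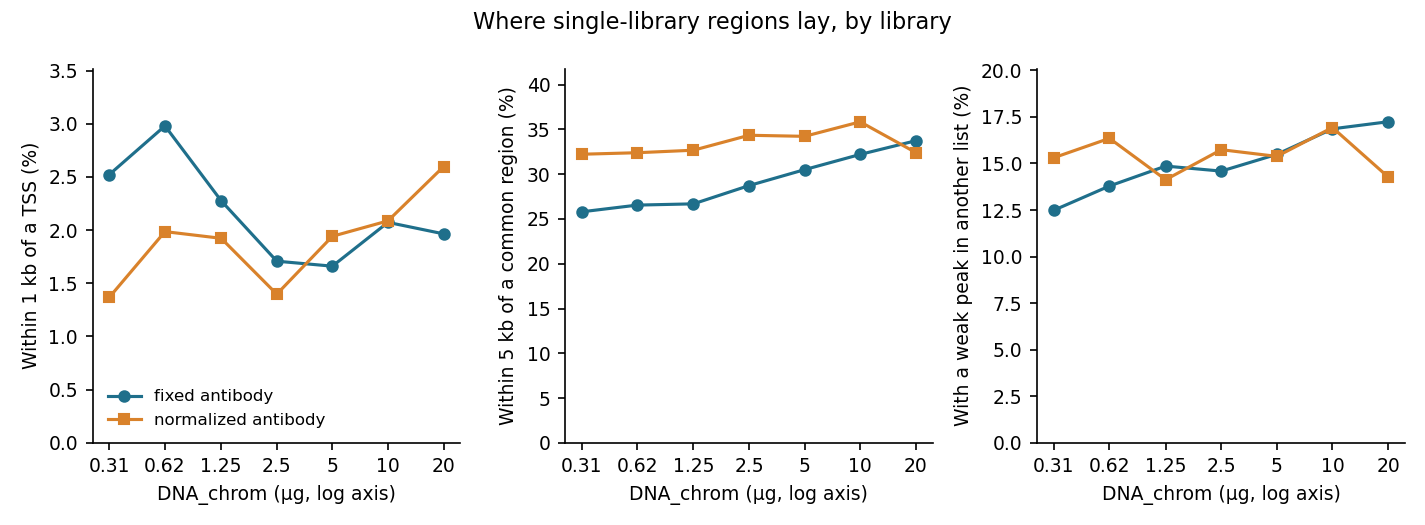
The percentage of each library's single-library regions within 1 kb of a TSS (left), within 5 kb of a common region (middle) and with a weak peak in another list (right), against DNA_chrom in µg on a log axis, with 1 point per library and an axis from 0. In the fixed-antibody arm the middle panel rises from 25.8% to 33.7% and the right panel from 12.5% to 17.2%, while the normalized arm stays between 32.2% and 35.8% and between 14.1% and 16.9%.

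Most single-library regions had no peak of any strength in the other deposited lists. The deposited lists also hold peaks with a -log10 q under 2, called weak peaks here, which the rule did not count. There were 5846 to 9015 of them per list. The lowest deposited -log10 q was 1.301, so signal weaker than that cannot be seen here. A weak peak of another list overlapped or touched 11984 single-library regions (15.2%), and 66684 (84.8%) had no other deposited peak at all. Of the regions with support, 10443 had it in 1 other list and 1334 in 2, and 2 regions had it in 5.

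The share with weak-peak support rose in the fixed-antibody arm as the titer fell, in step with nearness to common regions. It was 12.5%, 13.8%, 14.9%, 14.6%, 15.5%, 16.9% and 17.2% from titer 32 to 0.5, with only the step from titer 8 to 4 going down. Pearson's r with log2 titer was -0.973 (exact p = 0.000794 over all pairings, adjusted p = 0.00238, n = 7) and rho was -0.964 (exact p = 0.00278). Without 0.31-T32 and 20-T0.5, r was -0.931 (exact p = 0.0333). The normalized arm had 15.3%, 16.4%, 14.1%, 15.7%, 15.4%, 16.9% and 14.3% from 0.31 to 20 µg. Its r with log2 DNA_chrom was -0.0523 (exact p = 0.904 over all pairings, adjusted p = 0.904, n = 7), rho was 0.0714 (exact p = 0.906), and without 0.31-T1 and 20-T1 r was 0.357 (exact p = 0.6). At matched DNA_chrom the difference between the arms was 0.456 percentage points, positive in 3 of 6 pairs (exact p = 0.656 by sign flips over 6 pairs, adjusted p = 0.716). The numbers of weak peaks differed between lists, and their part in these shares was not tested.

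Weak-peak support came more often from lists of the same arm than from lists of the other arm. Between 2 libraries of the same arm 0.777% to 2.83% of the single-library regions had a weak peak in the other list, with a mean of 1.67% over 84 ordered pairs. Between libraries of different arms the range was 0.459% to 1.99% and the mean 1.07% over 98 ordered pairs. The difference of 0.592 percentage points was the most extreme that swapping the arms within each amount of DNA_chrom can give (exact p = 0.0156 over all swaps, adjusted p = 0.0375, n = 14). The mean to the own arm exceeded the mean to the other arm in 14 of 14 libraries, by 0.26 percentage points in 20-T0.5 to 0.909 in 10-T1b. With 10-T1a and 10-T1b exchanged between the arms, the difference was 0.245 and did not pass the test (exact p = 0.109).

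The highest value of all was found for 20-T0.5, with 2.83% of its single-library regions under a weak peak of 10-T1a, its neighbour in titer. Among the fixed-antibody libraries, 0.31-T32 had its highest value in 0.62-T16 and 0.62-T16 in 0.31-T32, and 5-T2 and 20-T0.5 in 10-T1a. Among the normalized libraries 0.62-T1, 2.5-T1, 5-T1 and 20-T1 had their highest value in K562-H3K27ac-1.25-T1, which held 8565 weak peaks, the most in that arm. For each of the 7 fixed-antibody libraries the lowest value was the one in 0.31-T1, which held 5846 weak peaks, the fewest of all. The 2 libraries of the same condition did not stand out, with 1.48% of the single-library regions of 10-T1a under a weak peak of 10-T1b and 1.65% in the reverse direction. Both had their highest value elsewhere, 10-T1a in 20-T0.5 with 2.07% and 10-T1b in 5-T1 with 2.505%.

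**Figure D4:**
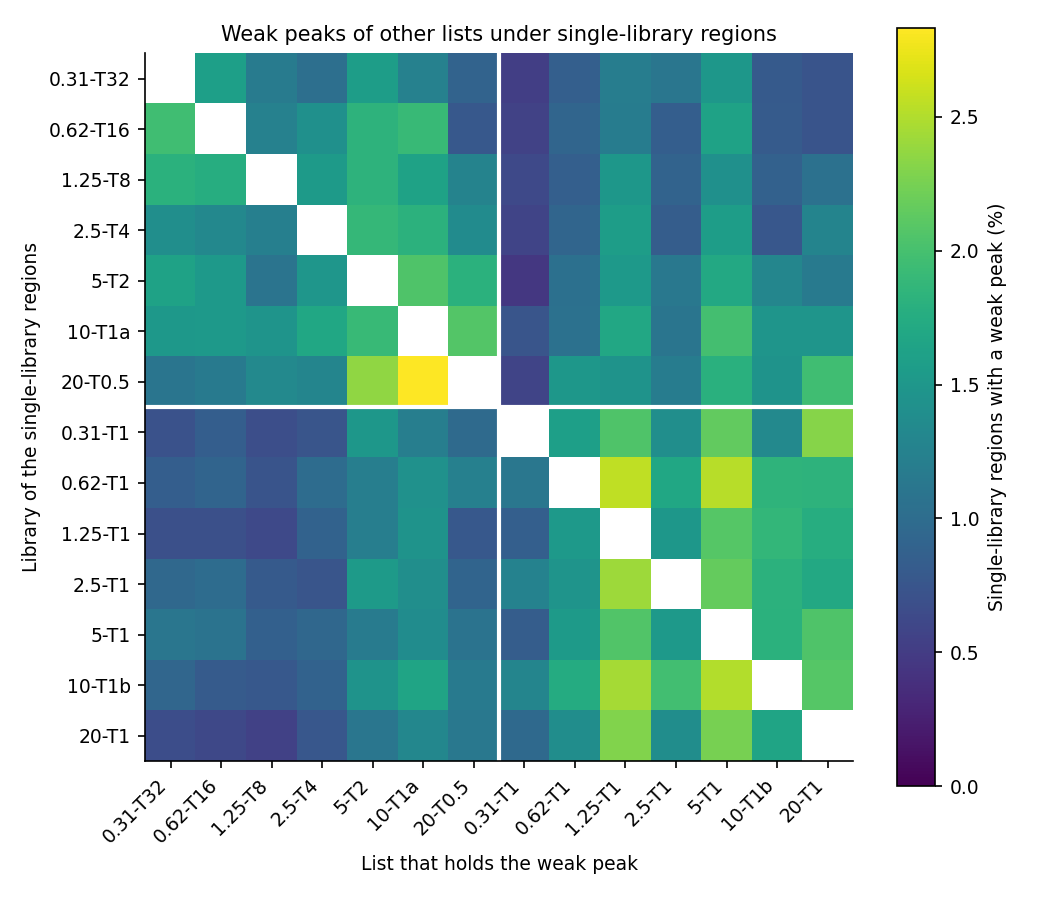
The percentage of the single-library regions of each library (rows) that overlap or touch a weak peak of each other list (columns), with white lines between the fixed-antibody and the normalized arm and a white diagonal that holds no value. The blocks within an arm are brighter, with a mean of 1.67% against 1.07% between the arms, and the column of 0.31-T1 is dark among the fixed-antibody rows.

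Single-library regions spread over all 23 chromosomes examined, with 36 more on 12 unplaced or unlocalized contigs. Their part of the merged regions of a chromosome was narrow in range, from 39.8% on chromosome 19 and 42.7% on chromosome X to 49.6% on chromosome 15, around 46.2% over all. Chromosome 1 held the most, 8207, and chromosome 21 the fewest, 927. For each common region there were between 3.05 single-library regions on chromosome 19 and 5.05 on chromosome 22. Numbers per megabase are not given, since the lengths of the chromosomes of this build were not used here.

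The library 20-T1 stood apart in where its single-library regions lay. Chromosome X held 4.25% of them, against 1.16% to 2.25% in the other 13 libraries, and chromosome 13 held 2.61% against 0.988% to 1.65%. Chromosomes 16 and 19 held 3.13% and 3.70%, against 4.45% to 5.63% and 4.84% to 6.37% elsewhere. Over all peaks of its list the differences had the same direction but were smaller, with 2.88% on chromosome X against 1.85% to 2.61% in the other lists. The median distance of its single-library regions to a TSS was 25609 bases, against 20520 to 23689 in the other 13 libraries, and 83 of them had a fold enrichment of at least 6, against 12 to 41. These chromosomes and this level of fold enrichment were picked after the values were seen, so no p-value is given. The search for outlying libraries described further below flagged 20-T1 for these measures except the share on chromosome 19.

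**Figure D5:**
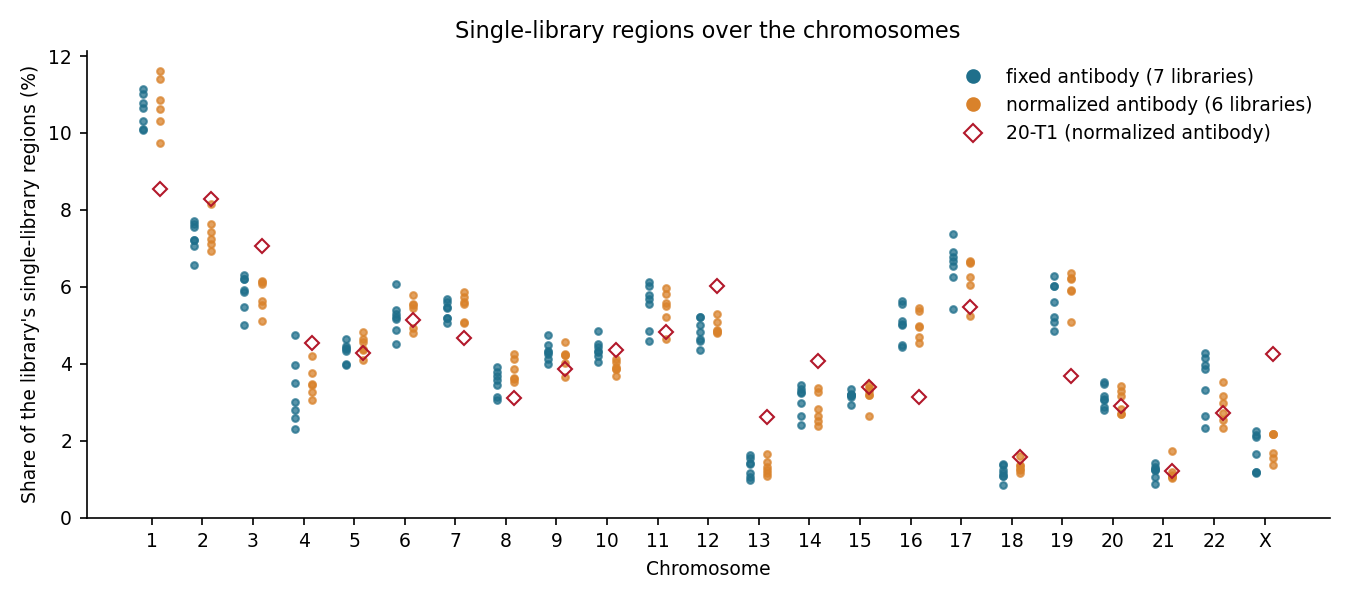
The percentage of each library's single-library regions on chromosomes 1 to 22 and X, with 1 point per library, points of the fixed-antibody arm to the left, points of the normalized arm to the right and an open diamond for 20-T1. The diamond lies above the other points on chromosomes 13 and X, at 2.61% and 4.25%, and below them on chromosomes 16 and 19, at 3.13% and 3.70%.

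The shares of some chromosomes shifted along the titration of the fixed-antibody arm, again as a description chosen after the values were seen. Chromosome 22 held 4.16%, 4.28%, 3.97%, 3.87%, 3.32%, 2.63% and 2.34% of the single-library regions from titer 32 to 0.5, and chromosome 4 held 2.59%, 2.31%, 2.79%, 3.51%, 3.005%, 3.98% and 4.75%. The direction was opposite on the 2 chromosomes, and over all peaks of the same lists chromosome 22 went from 3.24% to 2.75% and chromosome 4 from 2.81% to 3.49%. In the normalized arm chromosome 22 held 2.34% to 3.53% and chromosome 4 held 3.07% to 4.55%.

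Genes with a common region at their start also had a larger share with a single-library region, which is given as a description. Of 19630 protein-coding genes that could be placed, 7757 (39.5%) had a single-library region within 5 kb of the TSS and 10095 (51.4%) had a common region there. Among the genes with a common region 58.9% had a single-library region, and among those without 19.0%. Genes that share a start region share these regions too, so the genes are not independent.

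The gene lists differed in how often they had a single-library region at the start. A single-library region lay within 5 kb of the TSS in 12 of 26 erythroid genes, 8 of 14 progenitor and myeloid genes and 7 of 16 lymphoid genes, beside 39.5% of all genes. It did so in 11 of 16 writers, readers and erasers of acetylation, 39 of 77 cytosolic ribosomal protein genes, 24 of 39 proteasome genes and 199 of 477 zinc finger genes. Among HOX genes there were 14 of 39, among olfactory receptors 15 of 386 and among protocadherins 0 of 53. A common region lay there in 51.4% of all genes. It did in 77 of 77 ribosomal protein genes, 16 of 16 acetylation genes, 33 of 39 proteasome genes, 21 of 26 erythroid genes and 301 of 477 zinc finger genes. The counts were 6 of 14 in the progenitor and myeloid list, 10 of 39 for HOX genes, 2 of 16 for lymphoid genes, 7 of 386 for olfactory receptors and 0 of 53 for protocadherins.

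Counted over the whole gene and 5 kb around its TSS, 58.8% of all genes held a single-library region. The genes named here are among the 3 with the most in their list, and their count was not tested against length. ZNF609, with 226 kb, held 51 from 14 libraries, and ANK1, which encodes the ankyrin of the red cell membrane skeleton and spans 244 kb, held 50 from 14 libraries, none of them within 5 kb of the TSS. RUNX1, a hematopoietic transcription factor, held 30 from 12 over 262 kb, and CREBBP, which writes H3K27ac, 29 from 12 over 156 kb. PSMA1, a proteasome subunit, held 22 from 12 over 139 kb. ZNF469, the longest of the genes with the most in their lists at 339.8 kb, held 16 from 9, and PCDHGA1, with 182.5 kb, held 1. In the erythroid list TFRC, the transferrin receptor, held 8. TCF7, a T cell transcription factor, had 9 single-library regions over 39.99 kb and no common region within 5 kb of its TSS. The olfactory receptors with the most were OR51B5 with 12 and OR52A1 with 6, and both of these flank the beta-globin gene cluster. HOXC4 and HOXC5 start at the same position in RefSeq and share their 4 regions, and a single region of 0.62-T16 counts for several protocadherin gamma genes with overlapping spans.

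The promoters under single-library regions were poorer in CpG than those under common regions. The RefSeq windows from 250 bases before to 50 bases after the TSS, 15812 in all, were sorted by the region in the most lists that overlapped them. Under single-library regions lay 241 windows, with a median of 10 CpG dinucleotides and a GC content of 60.7%. Under regions in 2 lists the 123 windows had 14 and 61.7%, and under common regions the 7813 windows had 27 and 66.0%. The 6439 windows under no region had 9 and 56.0%. Fewer than 5 CpG dinucleotides were found in 22.8% of the windows under single-library regions, in 2.30% of those under common regions and in 35.0% of those under no region.

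Motifs were searched as exact letters on both strands, without regard to overlap. GGGCGG, the core of the binding site of SP1, was in 49.4% of the windows under single-library regions, in 73.9% of those under common regions and in 58.5% of all windows. Of the 4 promoters printed above, LFNG and CHRNB1 held it. TATAAA, the core of the TATA box, was in 8.71%, 4.92% and 9.64%, and CCAAT in 34.0%, 37.2% and 36.3%. These shares are given as a description only.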

How the data were processed

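H3K27ac ChIP-seq peaks of 14 K562 libraries were analysed, and the 2 input libraries entered only through the peak calling of the authors. The authors aligned the reads and called peaks with MACS2, separately in each library, and the submitters' processing notes name CASAVA 1.4, BWA 0.5.9 and hg38. The deposited values of a peak are a fold enrichment, which is a ratio, a -log10 p-value and a -log10 q-value. The deposited q-values reach 5.00%, while the study states a lower rate, so a minimum of 2 was set on the -log10 q. The study's methods name hg19, but 52.4% of the common regions lay within 1 kb of a GRCh38 TSS and 9.91% within 1 kb of a GRCh37 TSS, so positions were read as GRCh38.

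Protein-coding genes came from RefSeq GRCh38.p14. The strand came from its promoter table (15812 genes) or, by symbol and chromosome, from GENCODE (3818 genes), and 98.3% of 19974 genes were placed. Exact permutation tests ran over 5040 pairings, 64 or 16384 sign patterns or 128 arm swaps, and 12 tests formed 1 family for Benjamini-Hochberg adjustment. Lowest p-values were 0.0312 for 6 pairs and 0.0156 for arm swaps. With 1 library per condition, p-values measure the spread between these libraries, which may be technical.

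Named regions were the one of highest -log10 q in each library, the 3 widest, the one of highest fold enrichment over a TSS in each library and, in each of 10 gene lists, up to 3 genes with the most regions. The regions, lists and tests were chosen with earlier results of these data known. Alternatives were other q thresholds, merging gaps, a reciprocal overlap, other windows, linear scales, exchanged 10-T1 libraries and leaving out each library or pair. The functions were tested on simulated data. Computation used Python 3.11.15, numpy 2.4.6, pandas 2.3.3, scipy 1.17.1 and matplotlib 3.10.9. Some genes that the rule for named genes or the check of the cell line would name, and with them the check against lymphoid markers, are not reported here.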

Additional observations from a re-analysis of the deposited data

Results flagged for a closer look

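In each arm of 7 libraries, 13 measures of the single-library regions and their shares on 23 chromosomes were examined for a library far from the other 6, 72 groups in all. In independent groups chance would flag about 1 in 20, and 8 were flagged, 6 of them for 20-T1. The groups are not independent, since the chromosome shares of a library add up to nearly the whole of it. Number, width, fold enrichment and q-value were also used by the rule. The flags are therefore a description and no test against chance.

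In 20-T1, 1.27% of the single-library regions had a fold enrichment of at least 6, against 0.233% to 0.534% in the rest of the normalized arm. Their median distance to a TSS was 25609 bases, against 20520 to 21919. The share on chromosome X was 4.25%, against 1.37% to 2.19%, on chromosome 13 it was 2.61%, against 1.07% to 1.65%, and on chromosome 12 it was 6.03%, against 4.79% to 5.29%. The share on chromosome 16 was 3.13%, against 4.54% to 5.46%.

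In 10-T1b, chromosome 15 held 2.65% of the single-library regions, against 3.19% to 3.45% in the rest of the arm. In 0.31-T1, chromosome 21 held 1.73%, against 1.05% to 1.21%.

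The slope of the promoter share over DNA_chrom differed between the 2 arms before adjustment but not after it, and neither arm's own trend passed its test. It was -0.146 percentage points per doubling of DNA_chrom for the fixed-antibody libraries and 0.139 for the normalized ones, a difference of -0.285 (exact permutation test by arm swaps, p = 0.0312, adjusted over the 3 measures p = 0.0938). This test was added after the data were seen. The slopes of nearness to common regions differed by 1.07 (exact permutation test, p = 0.281) and those of weak-peak support by 0.774 (exact permutation test, p = 0.219).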

How the results depend on the processing

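The number of single-library regions, 78668, moved to 22203 with a -log10 q of at least 5, to 25550 when gaps of up to 1 kb were merged and to 223766 with a reciprocal overlap of at least 50%. The differences from regions in 2 lists kept their direction and stayed past the threshold under all alternatives run. So did the trend of weak-peak support in the fixed-antibody arm. Same-arm weak support missed the threshold only with 10-T1a and 10-T1b exchanged, at 0.245.

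Other values changed as follows, and the cause was not tested. Each matched nearness difference given here had an exact p of 0.0312. With a -log10 q of at least 5, r of the promoter share was -0.459 in the fixed-antibody and 0.864 in the normalized arm, r of nearness was 0.537 and -0.207, the matched nearness difference 2.02 and r of normalized weak support 0.189. With at least 3, r of the normalized promoter share was 0.850. With all deposited peaks the matched nearness difference was 4.80, and with 7 pairs 4.28. Merging gaps of up to 200 bp gave r of 0.849 for the normalized promoter share, 4.06 for matched nearness and 0.0104 for normalized weak support. Gaps of up to 1 kb gave 0.846, 2.01 and 0.632, and r of nearness was 0.0571 in the fixed-antibody and -0.306 in the normalized arm. Within 5 kb of a TSS r of the promoter share was -0.191 in the fixed-antibody and 0.909 in the normalized arm and the matched difference 0.942, and over a TSS the normalized r was -0.0210. Reciprocal overlap gave 0.930, -0.527 and -3.58 for the same 3 values. Within 1 kb of a common region normalized r was 0.876 and the matched difference 3.63, and within 20 kb r was -0.581 in the fixed-antibody and -0.179 in the normalized arm. A weak peak within 500 bp gave 9.386e-05 for normalized weak support, and linear DNA_chrom 0.810 for the normalized promoter share.

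Leaving out 1 library or pair, the normalized trends ranged from 0.535 to 0.895 for the promoter share, from 0.228 to 0.978 for nearness and from -0.472 to 0.337 for weak support, and the matched weak-support difference from -0.0989 to 1.14. Reciprocal overlap defines no regions in 2 lists and was run for the number and the promoter share only. TSS of the promoter table were added as a setting after the data were seen. They gave a difference of -0.461 from regions in 2 lists, and each promoter result stayed on the same side of the threshold. The libraries were paired by DNA_chrom only, since no replicate numbers of the labels pair them.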

Other observations

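At a -log10 q of at least 5, with the regions chosen anew, single-library regions made up 2.14% of the list in 0.31-T1 and 2.497% in 0.31-T32 at the low end. They made up 5.96% in 20-T1 and 5.997% in 5-T1 at the high end. In the fixed-antibody arm the share was 2.497%, 3.28%, 2.73%, 3.38%, 4.78%, 5.47% and 4.20% from titer 32 to 0.5, so the libraries of titer 2, 1 and 0.5 lay above the other 4. With a -log10 q of at least 2 these 7 shares had been 5.81% to 7.72% without such an order. No test is given, since the threshold decides which regions are counted.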
